A study of Mus musculus with 8 samples.

Results

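The collagen chain family was taken from RNA sequencing of mouse pineal glands as the protein-coding genes whose symbol is Col, a type number, the letter a and a chain number. This gave 44 of the 21980 protein-coding genes in a table of 53710 genes. By structure, 11 encode fibrillar chains, 8 encode chains of basement membranes, 9 encode fibril-associated collagens with interrupted helices (FACIT), and 16 belong to other types. The study compared 4 libraries of 5xFAD mice, named by the numbers 1, 2, 3 and 21 in their titles, with 4 of wild type (WT) C57BL/6 mice, numbered 11, 21, 22 and 23. Wherever 4 values are given for a group, they are in that order. 5xFAD mice carry human transgenes with familial Alzheimer's disease mutations, driven by Thy1 promoter elements in neurons, and accumulate Aβ42. Per the study's methods, all mice were males of 5 months, killed soon after lights on, and 5 to 7 glands were pooled for each library. The 5xFAD mice came from Jackson and the wild type mice from Koatech, so supplier and genotype cannot be told apart.

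Every collagen is a trimer of chains that wind into a triple helix. Fibrillar chains are assembled with propeptides that are cut off outside the cell, after which the molecules pack into fibrils and are cross-linked. Type IV chains form the sheet under endothelium and other epithelia, FACIT chains sit on the surface of fibrils, and type VI and type VIII chains form networks of their own. Fibroblasts, osteoblasts, chondrocytes and vessel wall cells are the main sources of collagen, whereas pinealocytes are neuroendocrine cells that lie between vessels and a connective tissue capsule.

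Levels are FPKM (fragments scaled to transcript length and library size), which are per length and can be compared between genes. From the steps of low values, 1 FPKM on a transcript of 2 kb stood for about 22 to 37 fragments per library, and all collagens tested had about 11 fragments or more in every library. Protein-coding FPKM summed to between 320286 and 391275 in all 8 libraries. WT-22 went against the stated sex: Xist, the RNA that coats the inactive X chromosome, was 13.3 FPKM there and 0.0048 to 0.0404 FPKM in the other 7 libraries, while the Y-linked gene Ddx3y was 32.0 to 59.4 FPKM in all 8. 5xFAD-2 held 516 FPKM of Ucp1, the uncoupling protein of brown fat, against at most 0.193 FPKM elsewhere. Because of the Xist value, the counts, the class medians and the members that WT-22 moved most are also given without WT-22.

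Most collagen RNA in the pools came from few genes, and the fibrillar class differed most between libraries. Summed over its members, the fibrillar class had 545, 858, 526 and 114 FPKM in the 5xFAD libraries, against 3749, 2896, 220 and 1719 FPKM in the wild type libraries. The 5xFAD libraries thus lay below 3 of the 4 wild type libraries, and WT-22 lay among them. Group means were 511 ± 305 FPKM in 5xFAD and 2146 ± 1530 FPKM in wild type (SD, n = 4 each), a log2 ratio of −2.07, and −2.45 without WT-22. In pooled glands, fewer collagen-producing cells in a pool, whatever tissue they came from, and less collagen RNA per cell cannot be told apart.

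The other classes differed less. Basement membrane chains summed to 62.5 ± 14.5 FPKM in 5xFAD and 74.2 ± 24.7 FPKM in wild type. FACIT chains summed to 149 ± 14.0 FPKM in 5xFAD and 207 ± 94.2 FPKM in wild type, and the other types to 435 ± 78.2 FPKM in 5xFAD and 574 ± 91.3 FPKM in wild type. All collagens together were 0.182 to 0.410% of protein-coding FPKM in the 5xFAD libraries and 0.229 to 1.36% in the wild type libraries. Type I chains made up 14.5 to 45.0% of the collagen sum in 5xFAD and 20.7 to 65.5% in wild type. Col8a1 was the leading gene in 5xFAD-1, 5xFAD-21 and WT-22, with 23, 35.3 and 41.1% of the collagen sum.

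**Figure D1:**
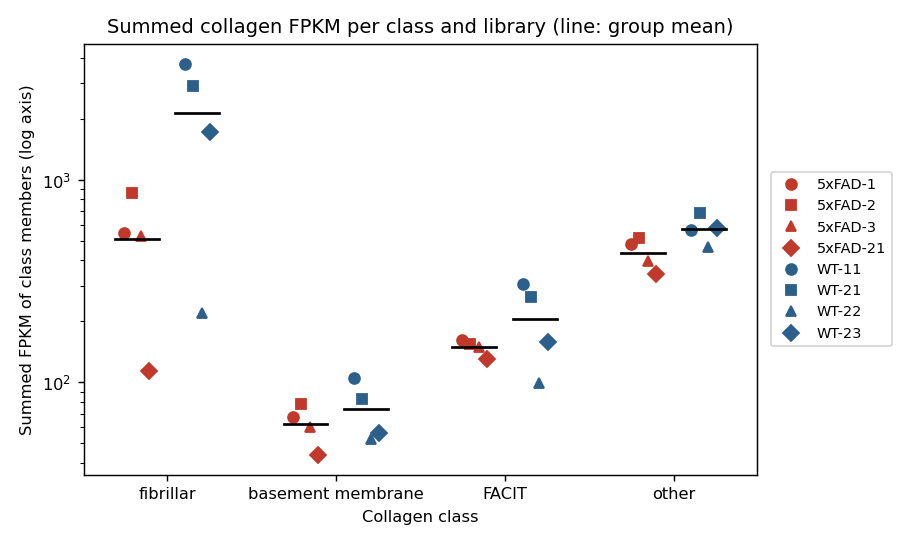
Summed FPKM of each collagen class in each library, on a log axis, with 5xFAD (red) left of wild type (blue) and a line at each group mean. The fibrillar sum spans 114 to 858 FPKM in 5xFAD and 220 to 3749 FPKM in wild type, with WT-22 and 5xFAD-21 apart from the rest of their groups, while the basement membrane sum spans only 43.7 to 78.4 FPKM in 5xFAD and 52.7 to 105 FPKM in wild type.

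The question was whether collagen transcripts differed between 5xFAD and wild type glands beyond the spread between pools. Of the 44 members, 35 had a mean of at least 1 FPKM and were tested: 10 fibrillar, 8 basement membrane, 6 FACIT and 11 of other types. Col24a1, Col22a1 and Col17a1 reached that level only through wild type, with 5xFAD means of 0.351, 0.530 and 0.971 FPKM. Their lower values in 5xFAD are thus in part set by the filter. No member passed an adjusted p of 0.05 in limma, fitted over all 13953 genes of that level, where 0.0358% of genes were called higher and 0.00717% lower. At an unadjusted p of 0.05, 1 of 35 was lower in 5xFAD (all genes 3.25%) and 0 were higher (all genes 4.77%). For 0 of 35 members did the groups separate, against 2.18% of all genes with all 5xFAD values above all wild type values and 2.16% with all below. The log2 fold change, of 5xFAD over wild type on FPKM + 0.1, was below 0 for 31 of 35 members, against 50.8% of all genes. The study singled out collagen genes on these same samples, so this direction is not independent evidence.

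By class, the fold change was below 0 for 10 of 10 fibrillar, 6 of 8 basement membrane, 5 of 6 FACIT and 10 of 11 other members. The median log2 fold changes were −1.45 for fibrillar, −0.10 for basement membrane, −0.49 for FACIT and −0.48 for other members, beside −0.01 over all genes tested. With no minimum level, the median was −1.42 for fibrillar, −0.48 for FACIT and −0.30 for other members. Single libraries moved the fibrillar median: it was −2.28 without WT-22, −0.88 without WT-11, −0.79 without 5xFAD-21 and −1.69 without 5xFAD-2. The FACIT median was −0.91 without WT-22, −0.33 without WT-11 and −0.75 without 5xFAD-1. That of other types was −0.88 without WT-22, −0.30 without WT-11 and −0.22 without 5xFAD-1. The basement membrane median was −0.10 without WT-22. Within the libraries whose titles number them in the 20s (5xFAD-21 against WT-21, WT-22 and WT-23) the fibrillar median was −2.67. Within the others (5xFAD-1, 5xFAD-2 and 5xFAD-3 against WT-11) the fibrillar median was −2.30. The basement membrane median was 0.23 in the first of these comparisons and −0.48 in the second. Each comparison has a group of 1 library, 5xFAD-21 or WT-11, which were the lowest 5xFAD and the highest wild type library for all 10 fibrillar members, so these values carry no test.

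**Figure D2:**
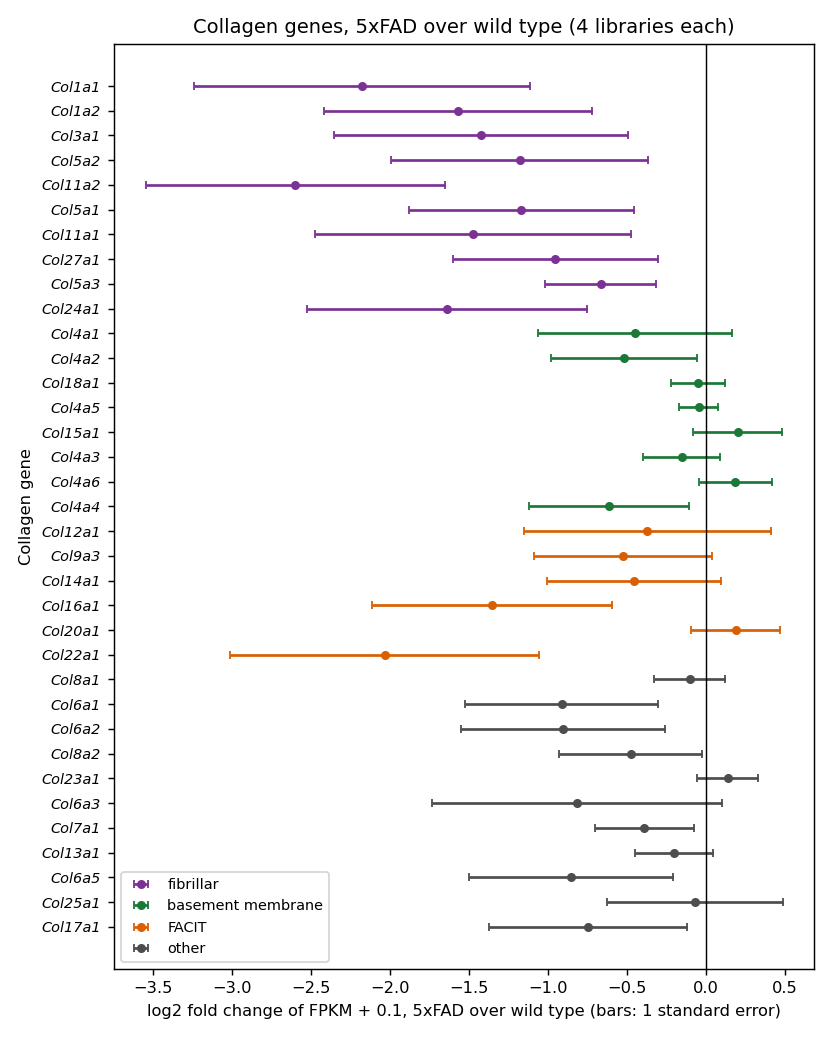
Log2 fold change (x axis, 5xFAD over wild type, FPKM + 0.1) of each of the 35 collagen genes tested, with bars of 1 standard error and colours for the 4 classes. All 10 fibrillar genes lie between −2.60 and −0.67, and the basement membrane genes lie between −0.61 and 0.20.

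Leaving out WT-22 raised the number of members that were lower, and 10 of them were fibrillar. Without it, 16 of 35 members were lower in 5xFAD at an unadjusted p of 0.05, against 8.18% of all genes, and 0 were higher (9.89%). These were all 10 fibrillar members, 2 of 6 FACIT members (Col16a1 and Col22a1), 4 of 11 other members (Col6a1, Col6a2, Col6a3 and Col8a2) and 0 of 8 basement membrane members. Col24a1 and Col22a1, counted here and among the 14 and the 19 given below, reached the level for testing only through wild type. For 13 of 35 members every 5xFAD library lay below the 3 remaining wild type libraries (7.1% of all genes), 8 of them fibrillar. Col24a1, Col22a1 and Col17a1, which reached that level only through wild type, are among these 13 and among the 15 given below. Both counts are thus in part set by the filter. At an adjusted p of 0.05 only Col11a2 was lower (adjusted p = 0.0463 in limma, 0.136% of all genes) and 0 were higher (0.573%). With 5xFAD-21 also left out, 14 members were lower at an unadjusted p of 0.05 (7.17%) and 0 higher (8.42%), 15 did not overlap (10.2% of all genes below), and none passed an adjusted p of 0.05 (0.0358% lower). With all 8 libraries and a term for the title numbers in the 20s, 19 members were lower at an unadjusted p of 0.05 (6.81%) and 0 higher (5.48%), 10 of them fibrillar, 2 basement membrane (Col4a1 and Col4a2), 3 FACIT and 4 of other types, and none passed an adjusted p of 0.05 (0.0287% of all genes higher, 0.00717% lower).

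Col11a2 (ENSMUSG00000024330.16, chr17:34039437-34066685 in GRCm38, plus strand), a chain of type XI collagen, which shapes cartilage fibrils, had the fibrillar class's most negative fold change. It was at 2.05, 8.11, 5.95 and 1.80 FPKM in the 5xFAD libraries, against 72.8, 43.9, 2.97 and 27.7 FPKM in the wild type libraries. WT-22 was inside the 5xFAD range, and the other 3 wild type libraries were all above it. The log2 fold change was −2.60 (SE 0.95, unadjusted p = 0.0233, adjusted p = 0.58 in limma), and leaving out 1 library gave −3.56 to −2.04. Col11a1, the partner chain in type XI collagen, was at 4.40, 3.88, 2.92 and 0.541 FPKM in the 5xFAD libraries and 23.3, 14.0, 0.872 and 6.34 FPKM in the wild type libraries. Its fold change was −1.47 (SE 1.00, adjusted p = 0.712), and −2.41 without WT-22.

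Type I collagen is the main fibril of bone, tendon and dura, and its chains had the highest means over all 8 libraries. Col1a1 (ENSMUSG00000001506.10, chr11:94936224-94953042, plus strand) stood at 174, 387, 207 and 35.4 FPKM in the 5xFAD libraries, against 1893, 1486, 81.0 and 903 FPKM in the wild type libraries. The range of 5xFAD overlapped wild type only through WT-22, which was below 3 of the 4 5xFAD libraries. The log2 fold change was −2.18 (SE 1.06, adjusted p = 0.634). Col1a2 (chr6:4504814-4541544, plus strand), the second chain of the type I trimer, stood at 216, 336, 218 and 56.0 FPKM in 5xFAD, against 1203, 994, 92.0 and 626 FPKM in wild type. Its fold change was −1.57 (SE 0.85, adjusted p = 0.653), with the same libraries high and low. Without WT-22 the fold changes were −3.19 for Col1a1 and −2.40 for Col1a2, with adjusted p = 0.109 and 0.116 in limma.

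Col3a1, the type III chain of vessel walls and loose connective tissue, had 110, 81.5, 60.5 and 11.2 FPKM in the 5xFAD libraries, against 414, 255, 28.7 and 105 FPKM in the wild type libraries. Here the groups overlapped more widely, since WT-23 lay below 5xFAD-1. Col5a2, a type V chain that takes part in starting fibrils, had 26.7, 24.3, 20.4 and 4.34 FPKM in 5xFAD, against 86.9, 65.9, 8.09 and 33.1 FPKM in wild type. The fold changes were −1.42 for Col3a1 and −1.18 for Col5a2 (SE 0.93 and 0.81, adjusted p = 0.704 and 0.717). Both were highest in WT-11 and lowest in 5xFAD-21, and without WT-22 the fold changes were −2.16 and −1.88. Of the other fibrillar members, the type V chains Col5a1 and Col5a3 and the cartilage and bone chains Col27a1 and Col24a1 had means of 14.1, 2.25, 2.64 and 1.19 FPKM, fold changes between −1.64 and −0.67, and the same WT-11 maximum. Col2a1, the main collagen of cartilage, was too low to be tested, at 0.110 to 0.264 FPKM in 5xFAD and 0.188 to 0.394 FPKM in wild type.

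The fibrillar members shared this order of libraries although they lie on several chromosomes. All 10 were highest in WT-11 and lowest among wild type in WT-22, all 10 were lowest among 5xFAD in 5xFAD-21, and 8 were lowest of all in 5xFAD-21. Over all genes tested, 18.5% were highest in WT-11 and 13.0% lowest in 5xFAD-21. The highest library exceeded the lowest by a median of 29.0 times for fibrillar members, 9.35 times for FACIT, 5.85 times for other and 2.25 times for basement membrane members, against 1.76 times over all genes. The excess was at least 10 times for 15 of 35 members and for 3.76% of all genes. Only Col3a1 and Col5a2 are neighbours in this class, 24614 bases apart on chromosome 1 and on opposite strands.

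**Figure D3:**
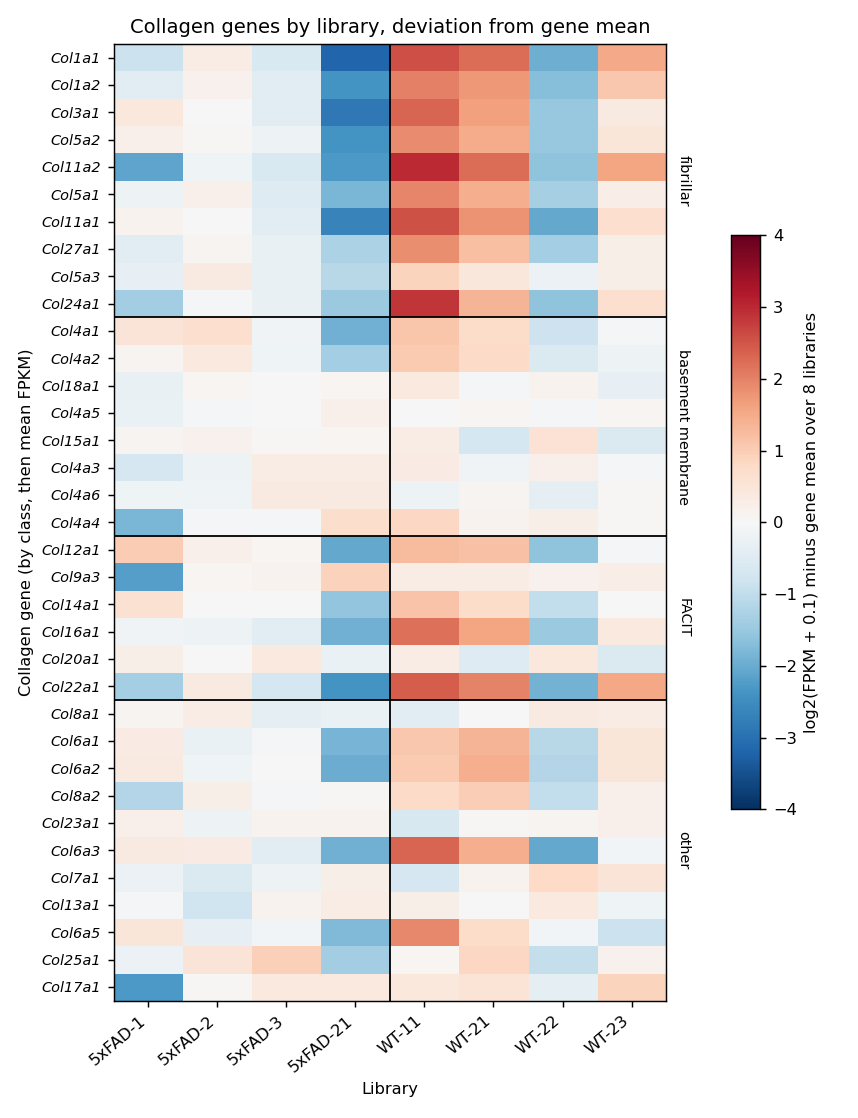
Each of the 35 collagen genes (rows, by class and mean FPKM) in each of the 8 libraries, coloured by log2(FPKM + 0.1) minus the mean of that gene over the libraries. All 10 fibrillar rows are red in WT-11 and blue in WT-22 and 5xFAD-21, and most basement membrane rows are near white.

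The promoters of some of the fibrillar members that moved together across libraries are shown as examples beside that of Col8a1, which did not share the order. They are sequences of GRCm38.p6 from 150 bases before the gene's RefSeq start to the base before it, 5′ to 3′ on the strand of the gene. For Col11a2 the RefSeq start, 34039138, lies upstream of the GENCODE gene start given above, 34039437. Capitals mark the sequence TATAAA or the sequence ATTGG, which is CCAAT read on the other strand. The GC box counted below is not marked.
Col3a1 (chr1:45311388-45311537, plus strand): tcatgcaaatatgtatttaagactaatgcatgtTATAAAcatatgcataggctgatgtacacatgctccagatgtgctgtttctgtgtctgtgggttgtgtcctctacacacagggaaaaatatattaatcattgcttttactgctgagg
Col11a1 (chr3:114030390-114030539, plus strand): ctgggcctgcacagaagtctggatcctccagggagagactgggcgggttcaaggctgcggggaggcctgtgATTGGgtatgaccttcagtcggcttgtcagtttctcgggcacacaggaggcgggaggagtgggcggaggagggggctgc
Col11a2 (chr17:34038988-34039137, plus strand): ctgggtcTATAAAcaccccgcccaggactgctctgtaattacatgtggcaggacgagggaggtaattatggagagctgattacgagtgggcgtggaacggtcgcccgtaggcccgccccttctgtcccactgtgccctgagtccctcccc
Col8a1 (chr16:57754738-57754887, minus strand): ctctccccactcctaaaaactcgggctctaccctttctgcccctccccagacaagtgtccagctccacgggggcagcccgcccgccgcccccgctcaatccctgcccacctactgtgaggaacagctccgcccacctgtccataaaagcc
Counted from the RefSeq start, Col3a1 and Col11a2 held TATAAA at −117 and −143, and Col11a1 held an inverted CCAAT at −79. RefSeq promoters were matched to 35 of the 44 members, with 38 starts in all. In the 250 bases before the start, CCAAT on either strand (CCAAT or ATTGG) occurred in 34.2% of the 38 collagen promoters and in 33.8% of 32851 promoters of all genes. TATAAA on either strand (TATAAA or TTTATA) occurred in 13.2% of collagen promoters and 12.4% of all. Of the 8 fibrillar promoters, 3 held CCAAT and 2 held TATAAA on either strand, so neither sequence was held by most of them. These were different promoters, and those of Col5a1, Col24a1 and Col27a1 held neither. The GC box GGGCGG or CCGCCC occurred in 57.9% of collagen promoters, 6 of 8 fibrillar ones among them, and in 32.7% of all promoters. Of the promoters shown, those of Col8a1, Col11a1 and Col11a2 held it within the 250 bases, and that of Col3a1 did not. Collagen transcripts also had more GC, with a median of 55.7% over the 35 members tested and 49.7% over all genes tested.

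The fold changes of basement membrane members were small in the fit of all 8 libraries, but not all alike. Col4a1 and Col4a2, the type IV chains that nearly all basement membranes hold, start head to head on chromosome 8 with 22 bases of overlap. Col4a1 was at 29.4, 32.5, 18.4 and 5.32 FPKM in 5xFAD, against 44.1, 33.8, 11.5 and 19.4 FPKM in wild type. Col4a2 was at 13.8, 16.5, 11.2 and 4.84 FPKM in 5xFAD, against 26.3, 21.7, 8.40 and 11.1 FPKM in wild type. These had the order of the fibrillar members, highest in WT-11 and lowest in 5xFAD-21, and the fold changes were −0.45 (SE 0.61) for Col4a1 and −0.52 (SE 0.46) for Col4a2, with adjusted p = 0.842 and 0.776. Without WT-22 both were at −0.80, and with the title number term they were −1.31 and −1.15 (unadjusted p = 0.016 and 0.00918 in limma).

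Col4a5, a type IV chain of kidney, lung and smooth muscle basement membranes, was at 6.84, 8.02, 8.46 and 9.54 FPKM in 5xFAD and 8.35, 8.78, 7.88 and 8.76 FPKM in wild type. Its fold change was −0.05 (SE 0.12, adjusted p = 0.926), the smallest standard error among the collagens, and its highest library was 5xFAD-21. Col18a1 and Col15a1 are the proteoglycan-like collagens whose ends are cut into endostatin and a related fragment. Col18a1 had 6.90, 9.04, 8.68 and 9.01 FPKM in 5xFAD and 11.1, 8.03, 9.31 and 6.74 FPKM in wild type, and Slc19a1 overlaps it in the annotation. Col15a1 had 6.32, 6.49, 5.96 and 6.17 FPKM in 5xFAD and 7.24, 3.53, 8.67 and 3.86 FPKM in wild type. All 5xFAD values of Col15a1 fell between the wild type extremes, and its highest library was WT-22. The fold changes were −0.05 (SE 0.17) for Col18a1 and 0.20 (SE 0.28) for Col15a1, with adjusted p = 0.944 and 0.849. Col4a3, Col4a4 and Col4a6, chains of specialised type IV networks, had means of 3.45, 1.56 and 1.83 FPKM and fold changes of −0.15, −0.61 and 0.19, the smallest adjusted p being 0.756.

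FACIT members split into those with the fibrillar order and those without it. Col12a1, which coats type I fibrils in dense connective tissue, was at 102, 58.1, 52.8 and 12.0 FPKM in 5xFAD, against 119, 113, 16.5 and 47.4 FPKM in wild type. Col14a1, which also coats type I fibrils, was at 33.3, 22.3, 22.1 and 7.31 FPKM in 5xFAD, against 48.4, 36.6, 11.1 and 21.8 FPKM in wild type. In both, 5xFAD-1 was close to the upper wild type libraries, and the fold changes were −0.37 (SE 0.78) and −0.46 (SE 0.55), with adjusted p = 0.904 and 0.821. Without WT-22 they were −0.97 and −0.86. Col16a1, found on fibrils of skin and cartilage, was at 11.6, 10.9, 9.30 and 3.29 FPKM in 5xFAD, against 59.4, 38.0, 4.52 and 16.7 FPKM in wild type. Its 5xFAD libraries lay below all wild type libraries other than WT-22, with a fold change of −1.35 (SE 0.76, adjusted p = 0.658), and −2.07 without WT-22. Col22a1, a collagen of muscle and tendon junctions, had the widest range of the 35 members tested, 56.3 times between WT-11 and 5xFAD-21, and a fold change of −2.03 (SE 0.98, adjusted p = 0.632), or −3.0 without WT-22.

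Col9a3, a chain of cartilage type IX collagen, was close to Col12a1 in mean level (62.5 and 65.2 FPKM), without the fibrillar order. It was at 11.9, 58.7, 60.5 and 104 FPKM in the 5xFAD libraries, against 67.1, 67.9, 62.7 and 66.7 FPKM in the wild type libraries. The 4 wild type libraries were within 1.08 times of each other, whereas 5xFAD held both the lowest and the highest value. Its fold change was −0.52 (SE 0.56, adjusted p = 0.805). Its partner chains were far lower, with means of 0.349 FPKM for Col9a1 and 0.833 FPKM for Col9a2. Tcfl5 overlaps Col9a3 on the other strand, and whether counting used the strand is not given in the sources used here, so reads of these genes cannot be told apart. Col9a1 was at 0.0537, 0.150, 0.223 and 0 FPKM (as listed) in 5xFAD, against 0.934, 0.898, 0.182 and 0.351 FPKM in wild type, and was under the level for testing. When no minimum level was set, its unadjusted p was 0.0128 in limma, on few fragments.

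Col20a1, a FACIT chain of poorly known function, was at 3.07, 2.60, 3.38 and 2.13 FPKM in 5xFAD and 3.20, 1.79, 3.47 and 1.69 FPKM in wild type. It varied little, and its fold change was 0.19 (SE 0.28, adjusted p = 0.862). Col19a1, a FACIT chain of muscle basement membrane zones, had a mean of only 0.110 FPKM and was not tested.

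Among the other types, Col8a1 (chr16:57624258-57754737, minus strand) came next after the type I chains by its mean over all 8 libraries, and ahead of them by its mean in 5xFAD (261 FPKM, against 206 FPKM for Col1a2 and 201 FPKM for Col1a1). It encodes a short chain of type VIII collagen, the network of vessel walls and of Descemet's membrane in the cornea. Col8a1 had 289, 329, 205 and 223 FPKM in the 5xFAD libraries, against 194, 264, 344 and 330 FPKM in the wild type libraries. Its order among wild type libraries was the reverse of the fibrillar one at both ends, with WT-22 highest and WT-11 lowest. The fold change was −0.10 (SE 0.23, adjusted p = 0.907). Col8a2, the partner chain, had 22.8, 59.7, 49.4 and 52.4 FPKM in 5xFAD and 86.2, 101, 25.9 and 58.6 FPKM in wild type, with a fold change of −0.48 (SE 0.45, adjusted p = 0.785), and −0.88 without WT-22.

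Type VI collagen forms beaded filaments around cells. Col6a1 had 65.5, 43.5, 50.6 and 14.3 FPKM in 5xFAD, against 109, 134, 24.2 and 73.5 FPKM in wild type. Col6a2 had 57.8, 40.3, 45.4 and 11.4 FPKM in 5xFAD, against 94.2, 123, 20.2 and 63.7 FPKM in wild type. For both genes, WT-22 alone kept the groups from separating, and the fold change was −0.91 for each (SE 0.61 and 0.65, adjusted p = 0.709 and 0.726). Without WT-22 it was −1.43 for Col6a1, −1.44 for Col6a2 and −1.64 for Col6a3. The third common chain, Col6a3, had a mean of 12.5 FPKM, a range of 21.7 times and a fold change of −0.82 (SE 0.91, adjusted p = 0.808), and Col6a5 had a mean of 3.98 FPKM and −0.86 (SE 0.64, adjusted p = 0.739).

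Transmembrane and anchoring collagens were not highest in WT-11, in contrast to the fibrillar members. Col23a1, a transmembrane collagen, was at 17.3, 13.1, 16.7 and 16.6 FPKM in 5xFAD and 9.64, 15.6, 16.4 and 17.4 FPKM in wild type. WT-11 was its lowest library, and its fold change was 0.14 (SE 0.19, adjusted p = 0.853). Col7a1, the anchoring fibril of skin, and Col13a1, a transmembrane collagen of neuromuscular junctions, had means of 10.1 and 6.78 FPKM and fold changes of −0.39 and −0.21, and both were highest in WT-22. Col25a1 encodes a neuronal transmembrane collagen whose shed part is deposited in amyloid plaques in human Alzheimer's disease. It had 1.36, 2.38, 3.26 and 0.558 FPKM in 5xFAD and 1.71, 2.97, 0.80 and 1.85 FPKM in wild type. It was lowest in WT-22 among wild type and in 5xFAD-21 among 5xFAD, and the groups overlapped over nearly their whole range, with a fold change of −0.07 (SE 0.55, adjusted p = 0.981). Col17a1, the transmembrane chain of hemidesmosomes, had a fold change of −0.75 (SE 0.63, adjusted p = 0.761). The 5 other members under the level for testing, Col28a1, Col26a1, Col6a6, Col6a4 and Col10a1, had means of 0.896, 0.805, 0.340, 0.0485 and 0.0289 FPKM.

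Chains that share a trimer kept their ratio to different degrees. Col6a1 over Col6a2 lay between 1.08 and 1.25 in all 8 libraries, although each gene varied more than 9 times. Col1a1 over Col1a2 was 0.806, 1.15, 0.950 and 0.631 in 5xFAD and 1.57, 1.49, 0.881 and 1.44 in wild type, and the 3 wild type libraries rich in type I RNA had the highest ratios. Col4a1 over Col4a2 was 1.10 to 2.13 in 5xFAD and 1.37 to 1.75 in wild type. Col11a1 over Col11a2 was 2.14 in 5xFAD-1, 0.30 to 0.492 in the other 5xFAD libraries and 0.229 to 0.320 in wild type. Col8a1 over Col8a2 was 4.15 to 12.7 in 5xFAD and 2.25 to 13.3 in wild type, highest in 5xFAD-1 and WT-22. These ratios are descriptions of FPKM and do not give the make-up of trimers.

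**Figure D4:**
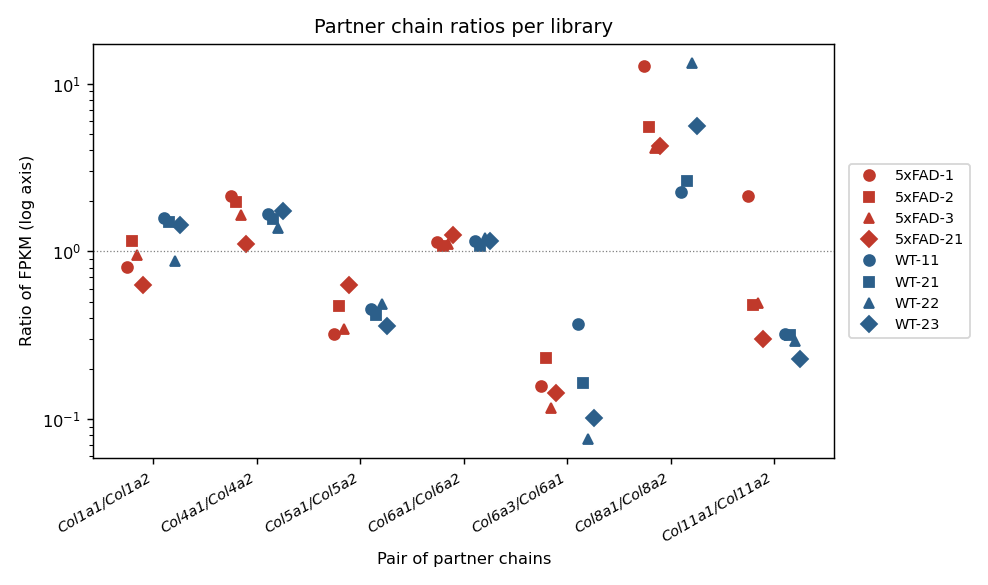
Ratio of FPKM between partner chains (x axis) in each library, on a log axis, with 5xFAD (red) left of wild type (blue) and a dotted line at equal levels. Col6a1 over Col6a2 stays between 1.08 and 1.25, whereas Col11a1 over Col11a2 in 5xFAD-1 stands at 2.14 and all other libraries lie at 0.492 or below.

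The genes that modify, export, trim, cross-link, bind and degrade collagen followed in part. Of 55 such genes, 52 were tested and 45 had a fold change below 0 (all genes 50.8%). The median was −0.23, beside −0.01 over all genes tested. At an adjusted p of 0.05 none was called, and at an unadjusted p of 0.05 there were 2 lower (all genes 3.25%) and 0 higher (all genes 4.77%). Bmp1, the protease that removes the C-propeptide of fibrillar collagens, was at 12.3, 11.5, 13.9 and 8.59 FPKM in 5xFAD, against 36.2, 27.0, 14.4 and 18.3 FPKM in wild type. Every 5xFAD library was below every wild type library (2.16% of all genes), and the fold change was −0.98 (SE 0.28, unadjusted p = 0.00764, adjusted p = 0.532 in limma). Colgalt1, which adds galactose to hydroxylysine of collagen, was at 18.9, 14.4, 16.3 and 17.8 FPKM in 5xFAD, against 19.5, 20.2, 21 and 19.8 FPKM in wild type. Here too the groups did not overlap, and the fold change was −0.26 (SE 0.11, unadjusted p = 0.0379, adjusted p = 0.598).

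By step, the median fold change was −0.09 over 13 genes of prolyl and lysyl hydroxylation, −0.10 over 8 of glycosylation, folding and export, −0.57 over 6 of propeptide removal and −0.57 over 4 of cross-linking. It was −0.43 over 7 proteoglycans and fibril organisers, −0.53 over 7 receptors and −0.41 over 7 proteases that degrade collagen. P4ha3, of the hydroxylation list, reached the level for testing only through wild type (mean 1.32 FPKM, against 0.927 FPKM in 5xFAD). General enzymes of the endoplasmic reticulum led the hydroxylation list, and P4hb, the second subunit of prolyl hydroxylase, was 91.8 ± 7.02 FPKM in 5xFAD and 96.2 ± 13.5 FPKM in wild type (SD, n = 4 each). Serpinh1, the chaperone of procollagen, was 89.0 ± 22.5 FPKM in 5xFAD and 104 ± 49.8 FPKM in wild type, with a fold change of −0.10 (SE 0.39, adjusted p = 0.95). Sparc, a collagen-binding protein of bone and other matrix, was 184 ± 73.0 FPKM in 5xFAD and 453 ± 285 FPKM in wild type, with a fold change of −1.08 (SE 0.60, adjusted p = 0.655). Without WT-22, 14 of the 52 genes were lower at an unadjusted p of 0.05 (all genes 8.18%) and 1 was higher (all genes 9.89%).

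Marker lists of several cell types moved with the fibrillar class across libraries. Osteoblast and osteocyte markers (8 of 11 tested, 7 below 0, median −1.09) summed to 22 to 83.8 FPKM in 5xFAD and 32.2 to 188 FPKM in wild type, with Dmp1, Mepe and Sost at 0 in at least 1 library. Ifitm5 reached the level for testing only through wild type (mean 1.66 FPKM, against 0.553 FPKM in 5xFAD). The count below 0 and the median are thus in part set by the filter. Chondrocyte markers (5 of 10 tested, 3 below 0, median −0.48) summed to 13.4 to 30.1 FPKM in 5xFAD and 8.14 to 45.5 FPKM in wild type, with Matn1 and Ucma at 0 in at least 1 library. The same limit holds for Acan in this list (mean 2.56 FPKM in wild type, 0.921 FPKM in 5xFAD). Meningeal and perivascular fibroblast markers (10 of 10 tested, 8 below 0, median −0.24) summed to 356 to 695 FPKM in 5xFAD and 393 to 1238 FPKM in wild type. Of these markers, Igf2 alone was lower at an unadjusted p of 0.05 in limma (all genes 3.25%), with a fold change of −0.90. Slc22a6 in this list reached the level for testing only through 5xFAD (mean 1.49 FPKM, against 0.898 FPKM in wild type). The osteoblast and fibroblast sums were lowest in 5xFAD-21 and WT-22 of their groups, as for the fibrillar chains.

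Endothelial markers (8 of 8 below 0, median −0.33) summed to 47.6 to 122 FPKM in 5xFAD and 57.8 to 173 FPKM in wild type, and smooth muscle and pericyte markers (8 of 8 below 0, median −0.57) to 79.8 to 171 FPKM in 5xFAD and 105 to 288 FPKM in wild type. Of the smooth muscle and pericyte markers, Rgs5 alone was lower at an unadjusted p of 0.05 in limma (all genes 3.25%), with a fold change of −0.58. Schwann cell markers (3 of 4 tested, 3 below 0) summed to 15.0 to 43.5 FPKM in 5xFAD and 24.8 to 84.2 FPKM in wild type, and osteoclast markers (2 of 6 tested, 1 below 0) to 5.94 to 43.0 FPKM in 5xFAD and 6.85 to 49.5 FPKM in wild type. Pinealocyte markers, which check the tissue, were all present (8 of 8 tested, 4 below 0, median 0.09). They summed to 1910 to 3128 FPKM in 5xFAD and 1217 to 2789 FPKM in wild type, the wild type maximum in WT-22. Of these 8, 2 were higher at an unadjusted p of 0.05 (all genes 4.77%). Those 2 were the phototransduction genes Sag, with a fold change of 0.89, and Gngt1, with 1.16 (SE 0.38 and 0.32, adjusted p = 0.615 and 0.529 in limma). The endothelial, smooth muscle, Schwann cell and osteoclast sums were also lowest in 5xFAD-21 and WT-22 of their groups. The part of these cells in the collagen result was not tested.

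**Figure D5:**
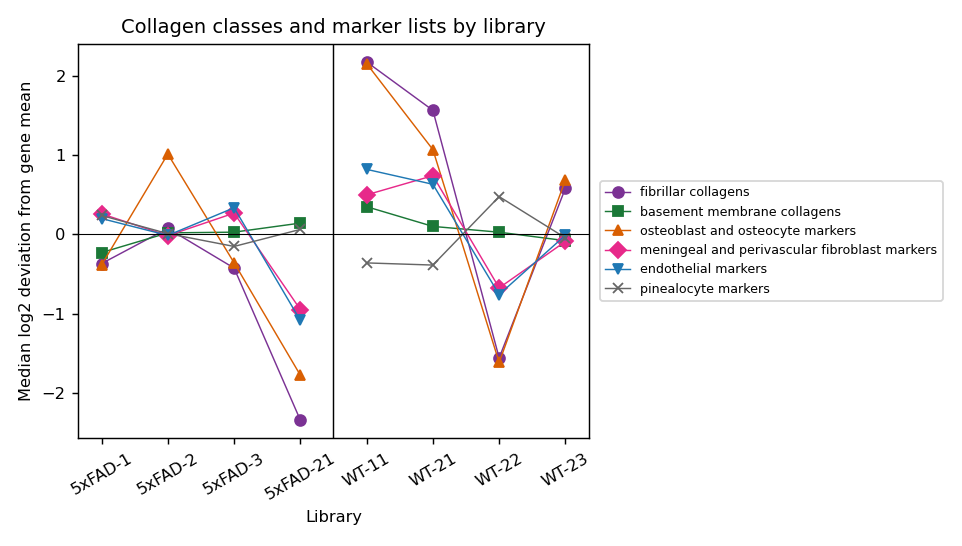
Median, over the genes of each list, of log2(FPKM + 0.1) minus the mean of the gene over all libraries, for 2 collagen classes and 4 marker lists in each library. Fibrillar collagens (−2.35 in 5xFAD-21, −1.56 in WT-22, 2.18 in WT-11) and the osteoblast and osteocyte markers (−1.78, −1.62 and 2.16) are close in those libraries but apart in 5xFAD-2 (0.08 and 1.0), and the basement membrane collagens stay between −0.23 and 0.35.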

How the data were processed

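RNA was sequenced from pooled pineal glands, 4 libraries of 5xFAD and 4 of wild type mice. The deposited values are FPKM per gene, which the authors made after ribosomal RNA removal and a stranded total RNA library, with Trimmomatic, STAR and Cuffnorm on GENCODE M17 (GRCm38.p6). Tool versions, the Cuffnorm library normalization and its strand setting are not given in the sources used here.

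All protein-coding genes and lncRNAs whose mean over the 8 libraries reached 1 FPKM were fitted (13953). Log2(FPKM + 0.1) was fitted in limma 3.58.1 (lmFit, eBayes with trend, R 4.3.3) with no covariate and Benjamini-Hochberg adjustment over all genes fitted. Gene coordinates came from GENCODE M21, and all 44 collagen IDs matched it without their version. Promoter starts came from RefSeq. Each library is a pool of mice, so p-values measure the spread between pools. On simulated data of 13953 genes, the fit recovered 58 of 100 genes changed by 1 and 85 of 100 changed by 2 on the log2 scale. It also called 13 unchanged genes. The changed genes were drawn at random from all genes fitted, with independent noise. These values therefore do not give the recovery of collagens, and the median standard error of the fibrillar members tested was 0.87.

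Members and lists were chosen with earlier results of these data known. Values are given per library for the 5 most abundant members tested of each class and any member or pathway gene at an unadjusted p of 0.05 or with groups that do not overlap, with up to 3 genes a list. Col11a1, Col9a1 and Col25a1 were added for their values, once seen. Alternatives were other pseudocounts, filters, scalings, covariates and variance models, GC trend removal, a replicate block and leaving out libraries.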

Additional observations from a re-analysis of the deposited data

Results flagged for a closer look

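In 70 groups of 4 libraries (35 collagens tested, in 5xFAD and in wild type), 4 had a library far from the others of its group, by Dixon's test of the gap over the range. Chance gives about 1 in 20 groups. All 4 were low values in 5xFAD. Col5a2 was 4.34 FPKM in 5xFAD-21, with 20.4 to 26.7 FPKM in the other 3 5xFAD libraries. Col18a1 was 6.90 FPKM in 5xFAD-1, with 8.68 to 9.04 FPKM in the others. Col23a1 was 13.1 FPKM in 5xFAD-2, with 16.6 to 17.3 FPKM in the others. Col17a1 was 0.127 FPKM in 5xFAD-1, with 1.05 to 1.37 FPKM in the others.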

How the results depend on the processing

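Over 22 alternatives with a test, 22 of 35 collagens never changed direction, all 10 fibrillar ones among them, and 24 of 759 fold changes did. No alternative called a collagen at an adjusted p of 0.05 other than Col11a2, whose adjusted p ranged from 0.0463 (without WT-22) to 0.992. Collagens lower at an unadjusted p of 0.05, 1 in all, were 2 with a pseudocount of 1, 2 with no filter and 10 with array weights. They were 19 with the title number set as a term (6.81% of all genes) and 14 with WT-22 and 5xFAD-21 both left out (7.17%). With 1 library left out they were 0 to 16, the 16 without WT-22 (8.18%). Those with groups that did not overlap were 15 with both left out (10.2%). With 1 left out they were 0 to 13, the 13 without WT-22 (7.1%). Some members counted reached the level for testing only through wild type. Of these, Col24a1 and Col22a1 are in the 19, 14, 16, 15 and 13, and Col17a1 is in the 15 and 13. Collagens called lower were 0 to 1, the 1 without WT-22 (0.136%). Pathway genes lower at an unadjusted p of 0.05, 2 in all, were 1 at equal protein-coding totals, 1 without a variance trend and 6 with array weights. They were 15 with the set term (6.81%), 10 with both left out (7.17%), and 1 to 14 with 1 left out, the 14 without WT-22 (8.18%). Pathway genes higher were 1 at equal totals, with GC trend removal, with array weights and with both left out (8.42%), and 0 to 1 with 1 left out. Shares of all genes are not given here for other settings, such as array weights. The class median of other types was −0.88 to −0.22 with 1 library left out. Within the titles in the 20s the medians were 0.23 for basement membrane and −1.69 for FACIT, and within the others −0.48 for basement membrane and −0.99 for other types. The basement membrane median was 0.04 without 5xFAD-1. With replicate number as a block, 2 collagens were lower. Libraries with the same replicate number in the labels' replicate field, which is not the title number, correlated in their deviations at −0.31 to 0.23, so these numbers do not pair them. The cause of these shifts was not tested.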
